A study of Homo sapiens with 6 samples.

Results

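The cytosolic and mitochondrial heat shock chaperones were taken as a list of 39 gene names: the HSP70 and HSP110 proteins, the HSP90 pair, small heat shock proteins, J proteins, BAG factors, HSP90 cochaperones, subunits of the chaperonin CCT, and the heat shock factors HSF1 and HSF2. The rule used names only, and no measured value. All 39 names were in the table, on 40 of its 27009 rows, because HSPA14 stands on 2 rows with different Ensembl identifiers. RNA was sequenced from 6 libraries whose titles name Hep3B cells, a line from a human hepatocellular carcinoma. In every library the title also names a knockout of endogenous PD-L1. The 3 libraries labelled vector came from cells with the empty vector, and the 3 labelled nPD-L1 from cells that stably carried a lentiviral PD-L1 under a CMV promoter, with 3 residues mutated so that the protein collects in the nucleus. The comparison asks how nuclear PD-L1 alters gene expression in the absence of the endogenous protein.

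Heat shock chaperones bind unfolded or partly folded proteins and keep them from aggregating. HSP70 works in cycles set by J proteins, which bring the client and start ATP hydrolysis, and by exchange factors such as the BAG and HSP110 proteins, which release it. HSP90 with its cochaperones then matures many kinases and receptors, and the ring-shaped CCT folds actin and tubulin. Under proteotoxic stress, HSF1 binds heat shock elements in the promoters of the inducible members and raises their transcription, and tumor cells often keep chaperones at a high level without any heat.

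Values are scaled reads, that is, reads on a gene divided by a factor for its library. Recovered reads on genes ranged from 17427519 to 22253295 per library, so counting error was small for all but the lowest members. CD274, the gene of PD-L1, had 28.3, 38.4 and 47.8 scaled reads in the libraries labelled vector and 16.8, 19.2 and 30.9 in those labelled nPD-L1. It was therefore not higher where the label names the transgene (limma, Benjamini-Hochberg adjusted p = 0.338), and directions are given below for the libraries as labelled. Of 10 liver markers 9 were in the table, and the absent one was AFP. The defining secreted proteins were at or near 0: ALB, APOA1, APOB and TF did not exceed 2.02, and TTR did not exceed 2.89, in any library. The line is named here as the titles give it, and its identity was not tested. The 9 summed to 1106 to 1646 scaled reads in the libraries labelled vector and 1163 to 1276 in those labelled nPD-L1, mostly the fibrinogen gene FGB at 962 to 1540.5. Of 8 markers of leukocytes, endothelium and fibroblasts 5 were in the table, and they summed to 163 to 246 and 579.9 to 649 scaled reads, while PTPRC, PECAM1 and VWF did not exceed 3.03. The collagen gene COL1A1 was higher in the libraries labelled nPD-L1, at 445 to 487, than in those labelled vector, at 49.9 to 82.8 (limma, adjusted p = 7.99e-06). LUM, the other fibroblast marker in the table, did not share this. It had 99.9 to 181.8 scaled reads in the libraries labelled vector and 111.8 to 161.1 in those labelled nPD-L1 (limma, adjusted p = 0.886). The part of these markers in the results below was not tested. In bulk RNA, fewer cells expressing a gene and less RNA per cell cannot be told apart.

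The sequences upstream of the members show which of them carry the heat shock element. It was searched on both strands as 2 inverted units, GAANNTTC or TTCNNGAA, and as 3 units, GAANNTTCNNGAA or TTCNNGAANNTTC, which contain the 2-unit form. The window was the 250 bases upstream of each RefSeq start (GRCh38.p14), and 35 of the 39 genes had one. The 2-unit form was found for 19 of the 35 genes (54.3%), against 14.0% of 27305 genes with a window. The 3-unit form was found for 7 of the 35 (20%), against 0.557% of all genes. The last 120 bases before the start are printed for HSPA1A, HSPA1B, HSPA8, HSP90AA1 and CHORDC1, as examples of members with matches there, and for the 3 members that differed most upwards between the groups. Capitals mark the units of each 2-unit match.
HSPA1A, chr6:31815423-31815542, plus strand: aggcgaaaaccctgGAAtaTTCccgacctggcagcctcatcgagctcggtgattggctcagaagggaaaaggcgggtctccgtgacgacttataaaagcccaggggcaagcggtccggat
HSPA1B, chr6:31827618-31827737, plus strand: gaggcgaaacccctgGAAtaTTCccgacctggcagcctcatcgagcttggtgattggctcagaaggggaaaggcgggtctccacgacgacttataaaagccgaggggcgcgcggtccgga
HSPA8, chr11:123062137-123062256, minus strand: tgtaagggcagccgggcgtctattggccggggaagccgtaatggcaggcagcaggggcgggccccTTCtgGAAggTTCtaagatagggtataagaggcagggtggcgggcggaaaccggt
HSP90AA1, chr14:102087045-102087164, minus strand: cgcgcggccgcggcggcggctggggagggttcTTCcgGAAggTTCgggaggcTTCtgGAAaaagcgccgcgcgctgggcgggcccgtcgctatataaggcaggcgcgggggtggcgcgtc
CHORDC1, chr11:90223050-90223169, minus strand: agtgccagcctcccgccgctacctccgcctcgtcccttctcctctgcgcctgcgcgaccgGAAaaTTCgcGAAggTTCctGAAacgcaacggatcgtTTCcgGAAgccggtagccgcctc
DNAJB1, chr19:14518398-14518517, minus strand: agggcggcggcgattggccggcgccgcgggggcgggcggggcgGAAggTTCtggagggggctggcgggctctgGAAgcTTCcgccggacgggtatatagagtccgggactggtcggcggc
BAG3, chr10:119651260-119651379, plus strand: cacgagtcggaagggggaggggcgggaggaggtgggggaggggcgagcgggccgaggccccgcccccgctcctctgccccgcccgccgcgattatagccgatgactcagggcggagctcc
DNAJB2, chr2:219279246-219279365, plus strand: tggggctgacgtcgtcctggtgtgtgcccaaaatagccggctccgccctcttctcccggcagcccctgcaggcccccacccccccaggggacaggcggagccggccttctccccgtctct
The HSPA1A and HSPA1B windows were 94.4% identical over 249 aligned bases, and each held 1 match, 106 and 105 bases before the start. HSPA8, which encodes the constitutive HSC70, held 4 in the full window, HSP90AA1 3 and CHORDC1 6. Matches that share a unit were counted separately, so these are not counts of separate elements. DNAJB1 held 2, at 77 and 47 bases. DNAJB1 and HSP90AA1 also have other RefSeq starts, whose windows held 0 matches, and only the window with matches is printed. No letters of this form were in the windows of BAG3 and DNAJB2. A match describes the sequence and does not show that a factor was bound, and no match says only that these letters are not in this window.

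Of the 38 member rows that passed the filter on low values (at least 10 scaled reads in at least 3 libraries), 1 was called higher in the libraries labelled nPD-L1, and 0 were called lower (limma, Benjamini-Hochberg adjusted p under 0.05 over 15076 genes). Over all genes tested 4.04% were called higher and 0.922% lower. At an unadjusted p under 0.05 there were 3 member rows of 38, all higher, where 9.53% of all genes were higher at that threshold and 14.2% passed it in either direction. The called gene was DNAJB2, and the next highest fold changes were those of DNAJB1 and BAG3. In sign, 28 of the 38 were lower and 10 higher, with a median log2 fold change of -0.097, where all genes had 53.3% lower and a median of -0.019. The groups did not overlap for 3 member rows that were higher and 5 that were lower, against a background of 12% and 8.54% of all genes. The intervals were mostly narrow: for 34 of 38 rows (89.5%) the 95% interval of the fold change lay within 1.5-fold either way, against 54.7% of all genes, and for 36 of 38 within 2-fold.

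**Figure D1:**
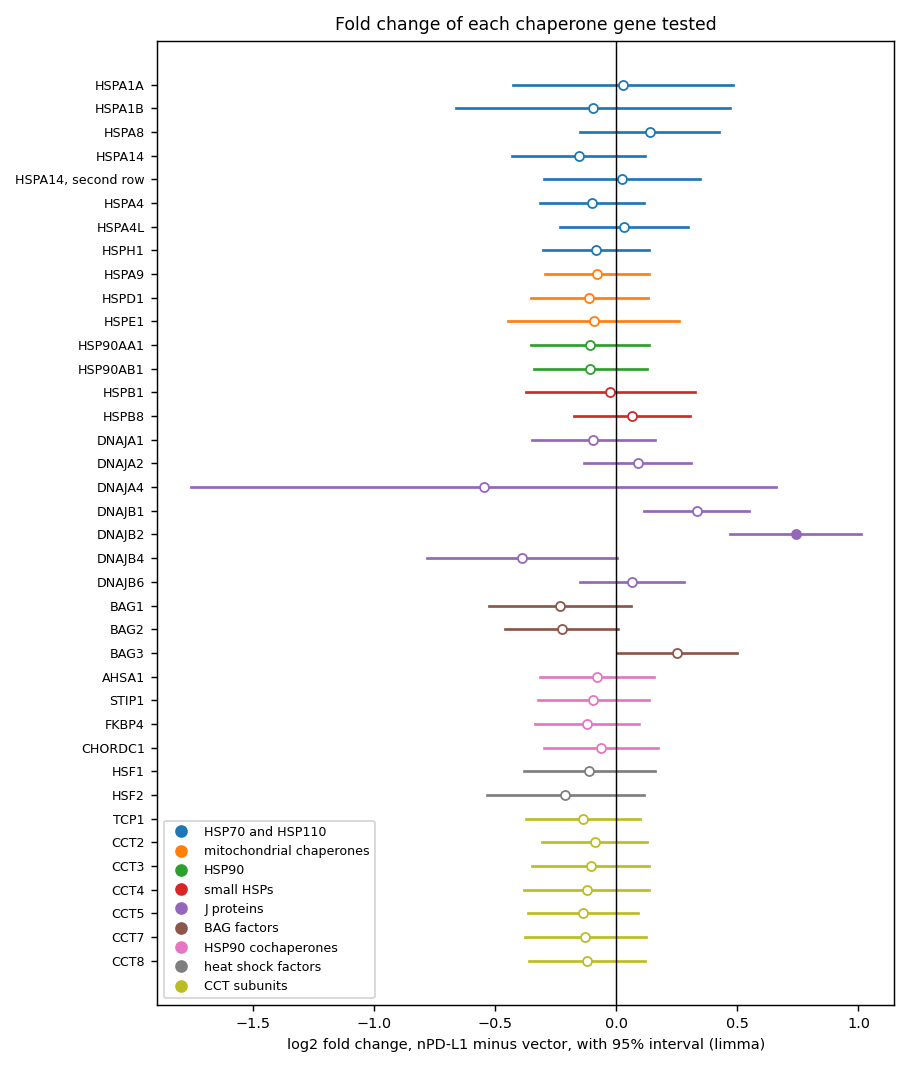
Log2 fold change (nPD-L1 minus vector) with its 95% interval from limma for the 38 member rows tested, coloured by role, with a filled point for an adjusted p under 0.05. DNAJB2 is the single filled point, at 0.74, the intervals of DNAJB1 and BAG3 also lie above 0, and the 7 CCT subunits line up between -0.139 and -0.09.

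DNAJB2, a J protein with ubiquitin-binding motifs that passes HSP70 clients to the proteasome, had 295, 348 and 291 scaled reads in the libraries labelled vector and 519, 514 and 524 in those labelled nPD-L1. All 3 libraries labelled nPD-L1 stood above all 3 labelled vector, and they lay close together. The means were 311 ± 31.8 and 519 ± 5.02 (SD, n = 3 each), and the log2 fold change was 0.74 (standard error 0.122, 95% interval 0.471 to 1.01; limma, adjusted p = 0.00441). The exact two-sided permutation test over the 6 libraries gave p = 0.1, the smallest that 3 against 3 allows. The call remained when any 1 library was left out, with an adjusted p of up to 0.0352, and was lost with 4 libraries (adjusted p = 0.145 with limma, 0.129 with edgeR and 0.114 with DESeq2), where the log2 fold change was 0.709 to 0.715. The gene (ENSG00000135924 in the table) lies on chromosome 2 and overlaps no other gene of the table above a low mean. None of the 100-base words of its longest transcript occurs in another gene. At 70.5 scaled reads per kb of gene length it was one of the less abundant members. DNAJB2 was the only member called. Its upstream window was one without the element, and whether that bears on the call was not tested.

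DNAJB1, the main J partner of inducible HSP70, had 2139, 2175 and 2127 scaled reads in the libraries labelled vector and 2975, 2600.4 and 2552.5 in those labelled nPD-L1. The groups did not overlap, and nPD-L1 replicate 1 stood above the other two. The log2 fold change was 0.33 with a 95% interval of 0.116 to 0.548, which did not pass the adjustment (limma, adjusted p = 0.0978). With 1 library left out the adjusted p was 0.0358 without vector replicate 2 and 0.151 to 0.315 without any of the others. DNAJB1 overlaps TECR on the opposite strand, and the sources used here do not state whether counting used strand. TECR had a log2 fold change of -0.135, and no 100-base word of the DNAJB1 transcript occurs in another gene's transcript.

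BAG3, an exchange factor that links HSP70 to selective autophagy, had 3129, 3176 and 2665 scaled reads in the libraries labelled vector and 3943, 3417 and 3309.8 in those labelled nPD-L1. All the libraries labelled nPD-L1 were above those labelled vector, but the lowest of them was close to the highest vector library. The log2 fold change was 0.25 with a 95% interval of 0.004 to 0.497 (limma, adjusted p = 0.338). BAG1 and BAG2, the other BAG factors among the members, had log2 fold changes of -0.23 and -0.225 and were not called. Outside the member list, BAG4, BAG5 and BAG6 had -0.154, 0.182 and -0.013 and were not called either. BAG1 had 1663, 2014 and 1421 against 1479.9, 1520.2 and 1303 scaled reads, so the groups overlapped, and its log2 fold change was -0.103 without vector replicate 2 and -0.354 without vector replicate 3. For BAG2, 41.9% of the 100-base words of its transcript are shared with RAB23 on the other strand, whose log2 fold change was 0.559 (adjusted p = 0.096), so the value of BAG2 is uncertain.

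The remaining J proteins gave no call. DNAJB4, which acts with HSP70 in the cytosol, had 582, 884 and 522 scaled reads in the libraries labelled vector and 508, 467 and 504 in those labelled nPD-L1. The groups did not overlap, and vector replicate 2 was far above the rest. The log2 fold change was -0.388 with a 95% interval of -0.781 to 0.004 (limma, adjusted p = 0.359), and without vector replicate 2 it was -0.161. DNAJA4 had the lowest fold change at a low level, with 11.1, 11.3 and 8.31 against 9.24, 10.1 and 2.89 scaled reads. Its low value rested on nPD-L1 replicate 3, and its log2 fold change of -0.548 had a 95% interval of -1.757 to 0.661. DNAJA1, DNAJA2 and DNAJB6 had log2 fold changes of -0.095, 0.089 and 0.064, with adjusted p from 0.746 to 0.819 (limma).

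The inducible HSP70 genes, which report heat shock signalling most directly, did not separate the groups. HSPA1A had 496, 505 and 374 scaled reads in the libraries labelled vector and 644, 362 and 424.5 in those labelled nPD-L1. HSPA1B had 149, 186 and 116 against 200, 125 and 105. In both genes nPD-L1 replicate 1 was the highest library while the other two lay inside the vector range or below it. The log2 fold changes were 0.027 (95% interval -0.428 to 0.481) for HSPA1A and -0.098 (-0.664 to 0.468) for HSPA1B, with adjusted p of 0.971 and 0.897 (limma). With 3 libraries a group, differences inside these intervals are not excluded. The residual spread of HSPA1A and HSPA1B was larger than that of 77.3% and 83.0% of genes tested. These near-identical genes share 69.9% and 72.7% of their 100-base words with another gene, chiefly each other, so reads may be split between them.

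HSPA6, an HSP70 made almost only under stress, and CRYAB, alpha B-crystallin, did not pass the filter on low values. HSPA6 had 13.1, 6.78 and 9.35 scaled reads in the libraries labelled vector and 16.8, 9.10 and 8.68 in those labelled nPD-L1. These were 28 and 38 reads in all, a ratio of 1.22 per depth with a 95% exact counting interval of 0.727 to 2.06. CRYAB had 2.02, 2.26 and 1.04 against 3.36, 5.06 and 3.86 scaled reads, or 5 and 13 reads, a ratio of 2.33 (0.78 to 8.35). The groups did not overlap for CRYAB, at very few reads per library. The intervals cover counting error only, and neither excludes equal levels.

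The other HSP70 and HSP110 members also gave no call. HSPA8 had 32409, 35309.8 and 27860.0 scaled reads in the libraries labelled vector and 39124, 34346 and 31530.0 in those labelled nPD-L1, and its log2 fold change was 0.137 (95% interval -0.151 to 0.425). HSPH1, an inducible exchange factor of the HSP110 family, had 4590.5, 4425 and 4807.5 against 4635, 3983 and 4451, a log2 fold change of -0.083. Both genes overlapped between the groups. HSPA4 and HSPA4L, the other HSP110 proteins, had -0.101 and 0.033. The 2 rows of HSPA14, a ribosome-associated HSP70, had -0.156 and 0.024, and because they overlap on 1 strand their reads cannot be assigned with certainty.

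**Figure D2:**
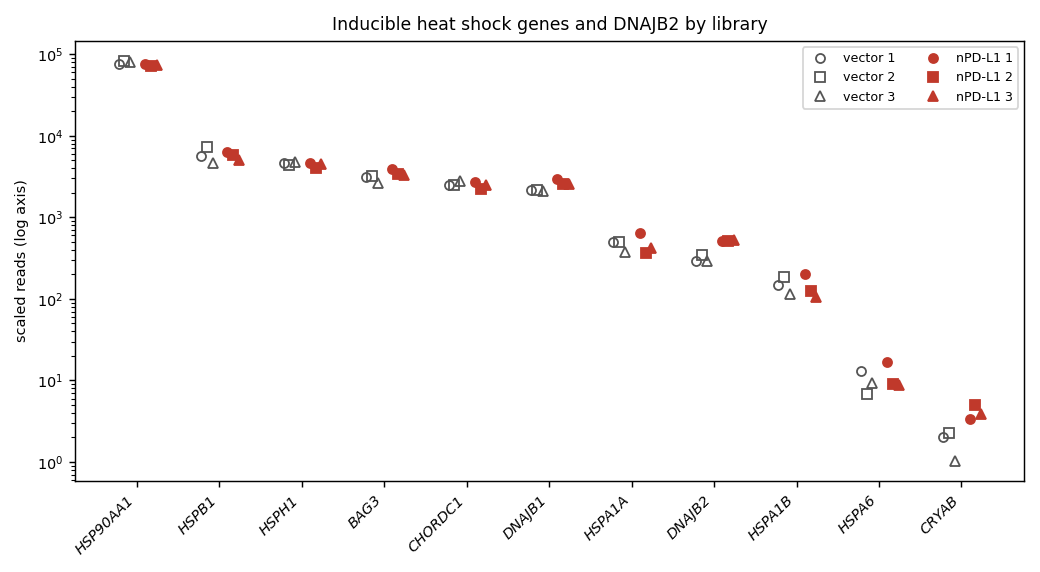
Scaled reads (log axis) of the 10 inducible heat shock genes and DNAJB2 in each of the 6 libraries, open grey for vector and filled red for nPD-L1, with 1 symbol shape per replicate number. DNAJB2, DNAJB1, BAG3 and, at very few reads, CRYAB separate the groups, whereas HSPA1A, HSPA1B and HSPA6 are highest in nPD-L1 replicate 1 and otherwise overlap.

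The HSP90 pair was the most abundant part of the network. HSP90AA1, the inducible form, had 75178, 83337 and 79784 scaled reads in the libraries labelled vector and 75743, 71165 and 73751 in those labelled nPD-L1. The ranges overlapped through nPD-L1 replicate 1 and vector replicate 1. The log2 fold change was -0.11 (95% interval -0.354 to 0.134). HSP90AB1, the constitutive form, ran from 62675 to 66892 in the libraries labelled vector and from 59219 to 61451 in those labelled nPD-L1, without overlap, at a log2 fold change of -0.107 (limma, adjusted p = 0.717). HSP90AA1 and HSP90AB1 together took 0.759%, 0.763% and 0.780% of the scaled reads in the libraries labelled vector and 0.734%, 0.702% and 0.735% in those labelled nPD-L1. Per kb of deposited gene length, HSP90AB1 was 1.38 to 1.53 times as high as HSP90AA1 in every library. HSP90AA1 had more scaled reads in every library, so this ratio rests on the lengths, 2980 bases for HSP90AB1 and 5248 for HSP90AA1. The longest transcripts are closer in length, at 2674 and 3510 bases.

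The HSP90 cochaperones were lower in sign in all 4 cases, and none was called. CHORDC1, whose window held the most elements of any member, had 2461, 2524 and 2777 scaled reads in the libraries labelled vector and 2731, 2241 and 2474 in those labelled nPD-L1. The groups overlapped, and the log2 fold change was -0.062 (95% interval -0.297 to 0.172). AHSA1, which speeds the HSP90 ATPase, STIP1, which bridges HSP70 and HSP90, and the immunophilin FKBP4 had log2 fold changes of -0.08, -0.095 and -0.12. The transcription factors gave -0.112 for HSF1 and -0.211 for HSF2 (limma, adjusted p = 0.737 and 0.597). HSF1 ran from 2881 to 2926 scaled reads in the libraries labelled vector and from 2354 to 3229.5 in those labelled nPD-L1, with nPD-L1 replicate 1 highest, as for HSPA1A.

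The small heat shock protein genes HSPB1 and HSPB8 did not differ detectably. HSPB1, an inducible holdase, had 5687, 7362 and 4652 scaled reads in the libraries labelled vector and 6263, 5837 and 5062 in those labelled nPD-L1, and the latter lay wholly inside the vector range. Its log2 fold change was -0.025 (95% interval -0.375 to 0.326). HSPB8, a partner of BAG3, ran from 664 to 679 and from 642 to 765, with a log2 fold change of 0.066. The mitochondrial chaperones HSPA9, HSPD1 and HSPE1, which import and fold matrix proteins, had -0.08, -0.111 and -0.094. HSPE1 was highest in vector replicate 2, at 2024 scaled reads, against 1279.9 to 1540.4 elsewhere, and 33.5% of its 100-base words occur in other genes, HSPD1 first.

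The subunits of CCT varied together between libraries. All 7 listed subunits (TCP1, CCT2, CCT3, CCT4, CCT5, CCT7 and CCT8) were lower in sign in the libraries labelled nPD-L1, with log2 fold changes between -0.139 and -0.09 and a median of -0.123, and none was called (limma, adjusted p from 0.625 to 0.736). In each of the 7 the highest library was vector replicate 2 and the lowest was nPD-L1 replicate 3. For CCT4, for instance, the scaled reads were 11737, 14552 and 11777 in the libraries labelled vector and 11998, 11925 and 10896 in those labelled nPD-L1. Vector replicates 1 and 3 thus lay below nPD-L1 replicates 1 and 2 for this subunit. The groups did not overlap for 2 of the 7, CCT5 and CCT8, against 8.54% of all genes in this direction. The lowest vector libraries of these 2 (12041.5 and 7292) were just above the highest labelled nPD-L1 (12013 and 7270.1). Without vector replicate 2 the median of the 7 was -0.045, and without nPD-L1 replicate 3 it was -0.085. CCT took 0.458%, 0.498% and 0.460% of the scaled reads in the libraries labelled vector and 0.453%, 0.443% and 0.429% in those labelled nPD-L1. For CCT5, 46.4% of the 100-base words occur in the annotation AC012640.4, and for TCP1 12.5% occur in ACAT2.

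The same libraries stood out, less uniformly, among the other members. Vector replicate 2 was the highest library for 20 of the 38 rows (52.6%), against 29.5% of all genes, and nPD-L1 replicate 3 the lowest for 20 (52.6%), against 20.7%. Outside CCT both counts were 13 of 31 (41.9%), and among the HSP70 and HSP110 rows 2 of 8. In vector replicate 2, 29 of 38 (76.3%) stood above their own mean, against 50.6% of all genes. In nPD-L1 replicate 3 only 6 (15.8%) stood above it, against 49.9% of all genes. Gene length moved with the same libraries: genes of up to 2750.75 bases deviated from their own mean by a median of 0.224 (log2) in vector replicate 2 and genes of 7155.5 bases or more by -0.174, and the same medians were -0.107 and 0.096 in nPD-L1 replicate 3. With a gene length trend removed from each library, the median of the members was -0.134 and that of CCT -0.141, while the median of all genes also moved, to -0.066, with 61.7% of them lower. Without vector replicate 2 the median was -0.042 over the members and -0.013 over all genes. The part of gene length in single fold changes was not tested beyond that fit.

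**Figure D3:**
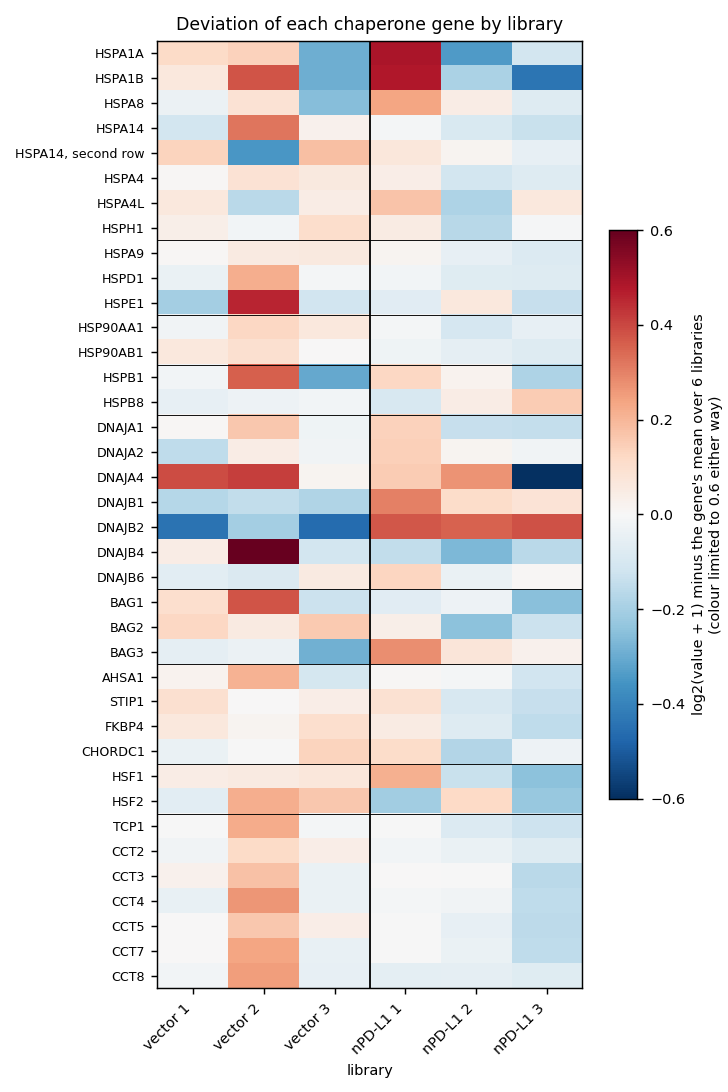
Log2(value + 1) of each of the 38 member rows in each library minus that gene's mean over the 6 libraries, in blue for below and red for above, with rows grouped by role. The CCT rows are red in vector replicate 2 and blue in nPD-L1 replicate 3, DNAJB2 changes colour between the groups, and HSPA1A and HSPA1B are darkest in nPD-L1 replicate 1.

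Levels were compared per kb of gene length, as the mean over the 6 libraries. HSP90AB1 led with 21020 scaled reads per kb, followed by HSP90AA1 with 14576, HSPA8 with 6894 and HSPD1 with 5065. CCT7, CCT3 and CCT4 followed at 4437, 4384 and 4292, and their ranges over libraries overlapped, with CCT7 above CCT3 in 4 of 6 libraries and CCT3 above CCT4 in 5 of 6. From CCT4 downwards the order CCT2, CCT8, CCT5 and TCP1 was the same in all 6 libraries by these lengths. The deposited gene lengths exceed the longest transcript unequally, as for CCT3 (4018 against 2150 bases) and CCT4 (2830 against 2520). The order of levels therefore depends on the length used, and its agreement between libraries does not test that choice. Constitutive HSPA8 was 31.1 to 48.6 times as high per kb as inducible HSPA1A, and HSPA1A 2.75 to 4.10 times as high as HSPA1B. The first ratio also depends on length: HSPA8 was divided by 4849 bases, where its longest transcript has 2463. For HSPA1A both lengths are 2483 bases. At the low end stood HSPA6, DNAJA4 and CRYAB, with means of 4.49, 1.34 and 0.966 per kb. All 40 rows together took 1.97%, 2.03% and 1.97% of the scaled reads in the libraries labelled vector and 1.99%, 1.87% and 1.89% in those labelled nPD-L1, so the shares of the groups overlapped.

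**Figure D4:**
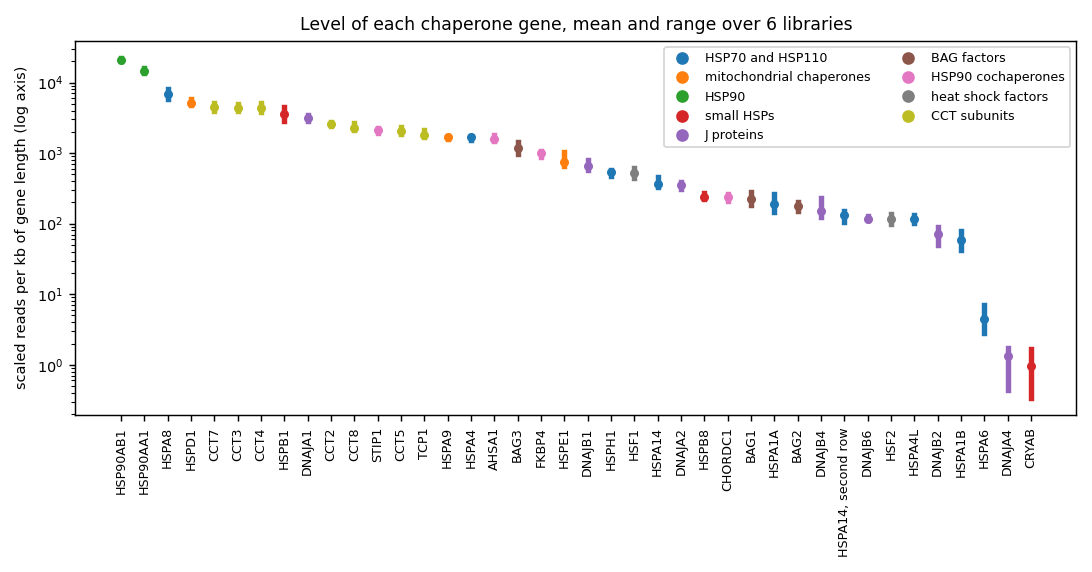
Scaled reads per kb of gene length (log axis) for the 40 member rows in order of level, as the mean (point) and the range over 6 libraries (bar), coloured by role. The HSP90 pair is at the top, CCT subunits fill the upper part, and HSPA6, DNAJA4 and CRYAB lie far below the rest.

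Fold changes were also set beside the heat shock element. The 18 tested members with a 2-unit match upstream had a median log2 fold change of -0.092, from -0.548 to 0.332, with 12 lower and 6 higher in sign. The 16 without one had a median of -0.098, from -0.233 to 0.741, with 13 lower and 3 higher.

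Of 97 further chaperone and stress genes, 94 were in the table and 92 passed the filter, and these included the remaining J proteins, HSP70 cofactors, HSP90 cochaperones, prefoldin, and chaperones of the endoplasmic reticulum and mitochondria. By the same rule 1 was called higher and 1 lower, against 4.04% and 0.922% of all genes. DNAJC6, auxilin, which recruits HSC70 to strip clathrin coats, had 368, 317 and 400.1 scaled reads in the libraries labelled vector and 610.1, 599 and 670.4 in those labelled nPD-L1, a log2 fold change of 0.79 (limma, adjusted p = 0.00354). IER5, an immediate-early gene whose product regulates HSF1, had 1491, 1595 and 1466 against 1023, 908 and 817, a log2 fold change of -0.73 (adjusted p = 0.00247). Neither gene overlapped between the groups. In sign 72 of the 92 were lower, with a median of -0.103, where 53.3% of all genes were lower with a median of -0.019. The 11 genes of CCT and prefoldin were all lower, with a median of -0.138 and 0 called. At an unadjusted p under 0.05 there were 13 of the 92, against 14.2% of all genes.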

How the data were processed

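The 6 libraries were prepared from total RNA and sequenced by a company. The submitters' processing notes name HISAT2 2.0.5 and the build hg38, and the counter and annotation are not given in the sources used here. The values the authors deposited per library are a signal, reads per gene divided by a size factor, in a table that calls them raw. All values were whole multiples of 1 read (tolerance 0.0002 of a step). The authors' log2 fold changes and p-values in the same table were not used.

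Log2(value + 1) was fitted with limma 3.58.1 (R 4.3.3, trend and robust moderation, two-sided) on 15076 genes, those that reached a value of 10 in 3 or more libraries. Calls required a Benjamini-Hochberg adjusted p under 0.05 over all of them. A count model had been planned for raw counts, and edgeR 4.0.16 and DESeq2 1.42.0 were run only as alternatives on recovered reads. The fit was tested on simulated data. Libraries were grouped by their titles. The study calls the 3 samples of a group independent but does not say that they were separate cultures, so p-values measure the spread between these libraries, which may be technical. Same-numbered libraries correlated at -0.013, 0.229 and 0.131 in their deviations, so they were not treated as pairs.

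Members and lists were chosen with earlier results of these data known. All members were accounted for, and values in every library were given for called members, 10 inducible genes and the 3 highest and 3 lowest fold changes, with HSPA8 and CCT4 added as examples after their values were seen. Of the further lists, called genes were named. Promoters came from RefSeq (GRCh38.p14), transcripts and overlaps from GENCODE 29.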

Additional observations from a re-analysis of the deposited data

How the results depend on the processing

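The count of members called higher, 1 in the report, was 2 with the replicate block (DNAJB1 joined, limma adjusted p = 0.0407), 2 with the replicate block and a gene length trend removed (adjusted p = 0.0499), 2 with DESeq2 on 6 libraries (0.0452), an alternative chosen after seeing the data, and 1 to 2 when 1 library was left out. It was 0 with limma, edgeR or DESeq2 on 4 libraries (vector replicates 2 and 3, nPD-L1 replicates 1 and 3). It was also 0 with a 2-fold minimum, and 3 at an unadjusted p. The replicate block raised the calls over all genes from 609 higher and 139 lower to 927 and 258, and vector replicate 1 did not correlate best with its own number. The count called lower was 0 under every alternative run. The 2 further chaperone genes called became 0 with limma or edgeR on 4 libraries or with a 2-fold minimum, and 13 at an unadjusted p. HSPA1A turned to -0.025 with upper-quartile scaling and ran from -0.211 to 0.203 with 1 library left out. HSPA1B turned to 0.022 with edgeR and 0.015 with DESeq2 on 4 libraries, and ran from -0.363 to 0.097 with 1 left out. HSPB1 turned to 0.048 with a length trend removed, with or without the replicate block, and ran from -0.183 to 0.148. CHORDC1 ran from -0.134 to 0.009. None of these 4 genes was called under any alternative, and the causes were not tested. The median over the members ran from -0.133 to -0.042, and that of CCT from -0.173 to -0.045, with 1 library left out, lower in sign under every alternative run. HSPA6 and CRYAB had 5 to 38 reads per group, so their depth leaves wide counting intervals.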
